A study of Homo sapiens with 6 samples.

Results

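Epithelial cells hold to each other through adherens junctions, tight junctions and desmosomes, and the genes described here encode the adhesive proteins of these junctions and the keratin filaments behind them. They are the protein-coding genes of the deposited count table named as cadherins (CDH), claudins (CLDN), keratins (KRT), desmocollins and desmogleins (DSC, DSG), plakophilins (PKP) or zonula occludens proteins (TJP), each followed by a number, together with OCLN, DSP, JUP, EPCAM, CTNNA1 and CTNND1. The rule used names only and took 90 of 32943 genes: 21 cadherins, 20 claudins, 4 genes of occludin and the ZO scaffolds, 12 desmosomal genes, 30 keratins and 3 further adhesion genes, EPCAM and the catenin genes CTNNA1 and CTNND1. Keratin genes whose symbols end in a letter, such as those of the KRT6 subfamily, fall outside it.

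Polyadenylated RNA was sequenced from AGS, which the labels give as the cells (AGS is a human line from a gastric adenocarcinoma), transfected with a lipid reagent and harvested 48 h later. The NC group received a control plasmid and the OE_IGF2BP3 group pcDNA3.1-3xFlag-IGF2BP3, an expression plasmid for tagged IGF2BP3, an RNA-binding protein known to affect mRNA stability and translation. Each group had 3 libraries, and the cells of both had been transfected. The labels mention neither a selection of transfected cells nor separate cultures per library. The p-values set the difference between the groups against the spread among the libraries of a group. That spread may be only technical, so the p-values may not extend to new cultures or transfections. IGF2BP3 itself was at 90.6, 102 and 100.2 CPM (counts scaled to a common library total) in the controls and at 511, 573 and 664 CPM with overexpression (log2 fold change 2.58 ± 0.08, adjusted p = 1.278e-08, edgeR quasi-likelihood test; exact permutation p = 0.1, two-sided, as low as 3 libraries against 3 can reach). Gene counts do not separate plasmid from cellular transcripts.

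As background, classical cadherins bind the same cadherin on the neighbouring cell and are tied to actin through catenins. Claudins form the strands that close the space between cells at tight junctions, and ZO proteins hold those strands to the cytoskeleton. Desmosomal cadherins connect through plakoglobin, plakophilins and desmoplakin to keratins, which are filaments built from pairs of a type I and a type II chain. KRT8, KRT18 and KRT19 are typical of simple epithelia such as that of the stomach, whereas KRT5, KRT14 and DSG3 are typical of stratified epithelia.

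Library totals were 33555366 to 37633587 counts. NC replicate 1 and OE_IGF2BP3 replicate 3 lay farthest out in their groups on the first principal component (−35.3 against −21.4 and −22.8, and 35.8 against 20.3 and 23.4), and results that depend on them are given without them. Of the markers of simple epithelium, 7 of 7 were detected, at a summed 9827 to 10301 CPM in controls and 8902 to 10280 CPM with overexpression. All 7 belong to the genes described here, so they are no separate check of the cells. Of these markers 2, CDH1 and EPCAM, were lower and 0 higher, and KRT8 and KRT18 held most of the sum. The label of a gastric line was not borne out by gastric markers. Of 9, 2 (GKN1 and GKN2) had no entry in the deposited count table. Of the other 7, 6 were under 1 CPM, among them MUC5AC, TFF1, TFF2 and CLDN18. The sum was 4.297 to 5.904 CPM in controls and 1.61 to 1.79 CPM with overexpression. All 8 liver markers, ALB and AFP among them, were lower with overexpression, with sums of 3676 to 3881 and 2195 to 2447 CPM. Of 5 intestinal markers 4 had reads, and all 4 were lower (442 to 458 and 362 to 370.5 CPM). Among 9 fibroblast and smooth muscle markers 4 were lower and 1 was higher (sums of 269.9 to 279 and 195 to 221 CPM). The 4 endothelial markers with reads, CDH5 and CLDN5 among them, summed to under 1 CPM in each library. Of 5 blood markers 2, CD14 and LYZ, were lower (sums of 76.4 to 83.1 and 27.9 to 37.97 CPM), and of 5 neural markers 1 (9.05 to 10.6 and 7.87 to 8.86 CPM). Among all genes tested 18.5% were higher and 19.2% lower. The part of these lists in the changes below was not tested. In such bulk samples fewer cells of a type and less RNA per cell cannot be told apart.

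Of the 90 genes, 51 had enough reads to be tested, the fewest being KRT83 with 57 reads over the 6 libraries. The other 39 had at most 48 reads (CLDN2). With overexpression 8 of the 51 were higher and 12 were lower (edgeR quasi-likelihood test, Benjamini-Hochberg adjusted p under 0.05 over all 17747 genes tested). Among all genes tested 18.5% were higher and 19.2% lower, so the junction and keratin genes, at 15.7% and 23.5%, lay near those shares. In either direction 39.2% of the 51 and 37.7% of all genes passed. Among protein-coding genes alone 22.3% were higher, 21.1% lower and 43.4% either. The median log2 fold change (overexpression over control) was −0.06 over the 51 genes and −0.01 over all genes. At 10 CPM or more in the higher group, 8 of 28 were higher, 6 lower and 14 did not pass, beside 28.9% higher, 22.4% lower and 51.3% either among protein-coding genes of that level. The groups did not overlap for 27 of the 51 genes (52.9%), against 50.6% of all genes tested, 56.4% of protein-coding genes and 63.4% of those at 10 CPM or more. Every class other than that of EPCAM and the catenins held both genes that rose and genes that fell. The counts by class below are to be read beside these shares of all genes.

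**Figure D1:**
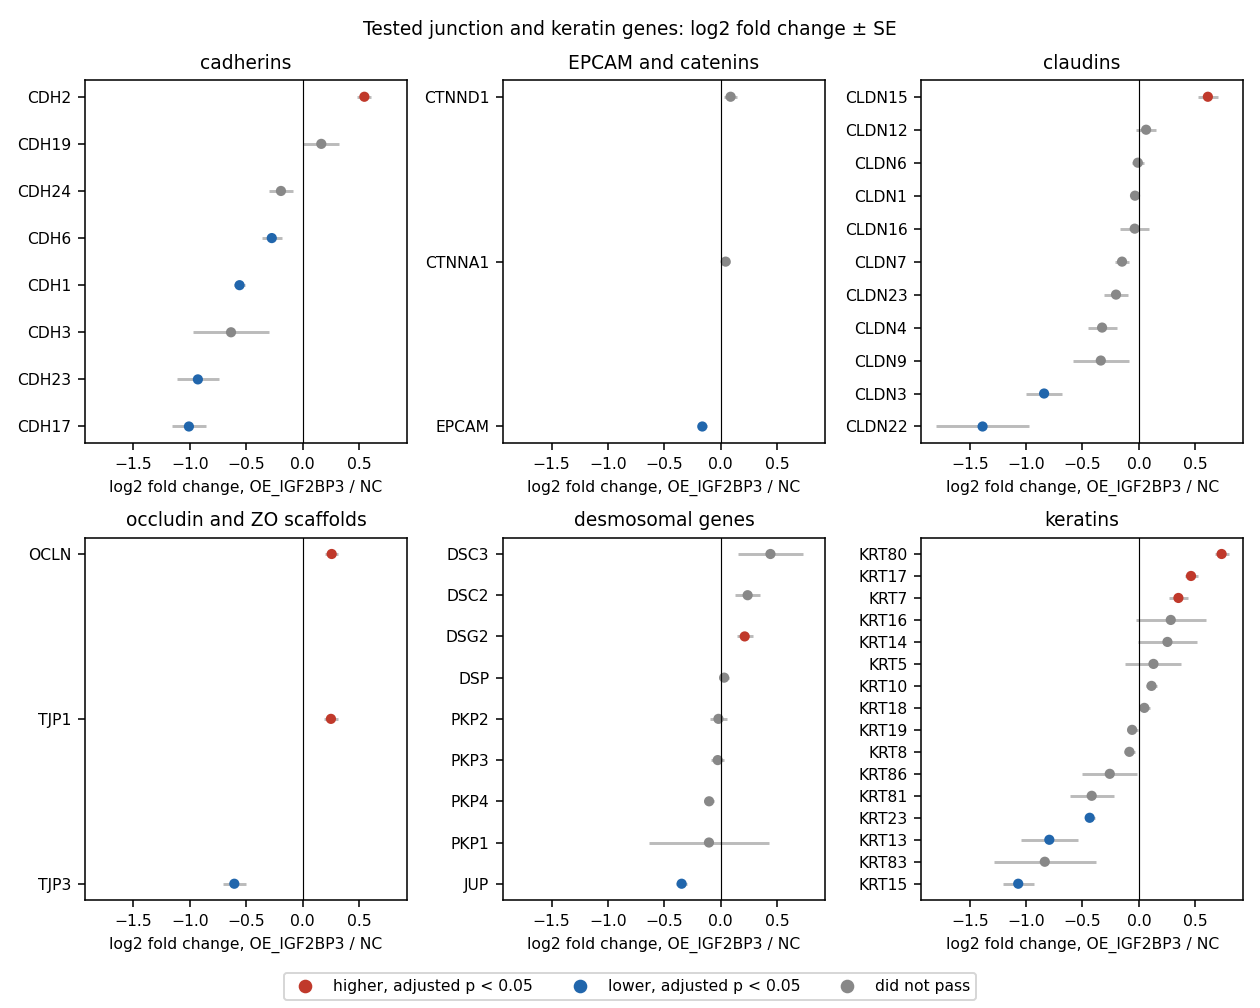
Log2 fold change of overexpression over control (points) with its SE (bars) for the tested genes reported here, 1 panel per class, red for genes higher and blue for genes lower at adjusted p under 0.05, grey for the rest. CDH2, CLDN15 and KRT80 lie farthest to the right among the genes called, and CLDN22, KRT15 and CDH17 farthest to the left.

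The 2 cadherins with the most reads, both classical cadherins, moved in opposite directions. E-cadherin, the main adhesive cadherin of epithelia, is encoded by CDH1 (ENSG00000039068.20; chromosome 16, 68737225 to 68835548, plus strand); all positions are GRCh38 from GENCODE release 29. Control libraries held 130.03, 118 and 126 CPM of it and overexpression libraries 83.4, 86.97 and 83.8 CPM. Every overexpression library was below every control library, a fall from 125 ± 6.04 to 84.7 ± 1.96 CPM (SD, n = 3 each; log2 fold change −0.56 ± 0.05, adjusted p = 8.075e-06; ± after a fold change is the SE). N-cadherin, common in mesenchymal and neural cells and encoded by CDH2 (ENSG00000170558.10; chromosome 18, 27950966 to 28177446, minus strand), was at 73.7, 83.4 and 82.5 CPM and at 112, 113 and 125 CPM. It rose in each overexpression library above each control library (log2 fold change 0.55 ± 0.06, adjusted p = 3.653e-05), with NC replicate 1 lowest and OE_IGF2BP3 replicate 3 highest. Without those 2 libraries its log2 fold change was 0.44 and that of CDH1 −0.52, and both passed.

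The ratio of CDH2 to CDH1 reads within a library needs no scaling between libraries. It combines the rise and the fall given above and is no separate evidence of either. It was 0.567, 0.706 and 0.653 in the control libraries and 1.34, 1.303 and 1.49 with overexpression. CDH1 therefore had more reads than CDH2 in each control library and fewer in each overexpression library. Per length, by the authors' FPKM (fragments scaled by gene length and library total), the levels of CDH1 and CDH2 were 17.1 ± 0.688 and 7.76 ± 0.684 in controls, and with overexpression they lay within their spread of each other, at 12.04 ± 0.29 and 11.8 ± 0.923 (SD, n = 3 each).

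Of 21 cadherin genes 8 were tested, 1 rose and 4 fell, with a median of −0.42. The other falls were in genes with fewer reads. CDH6, a type II cadherin first known from kidney, had 20.6, 17.98 and 18.1 CPM without and 17.2, 15.6 and 14.1 CPM with overexpression (log2 fold change −0.27 ± 0.09, adjusted p = 0.029). Its groups lay close together, and the call ended in 6 of the alternatives, among them those without NC replicate 1 (−0.21, adjusted p = 0.086), without OE_IGF2BP3 replicate 2 (−0.27, adjusted p = 0.075), without OE_IGF2BP3 replicate 3 (−0.20, adjusted p = 0.10) and without both NC replicate 1 and OE_IGF2BP3 replicate 3 (−0.14, adjusted p = 0.17). CDH17, the liver-intestine cadherin, fell from 3.74 ± 0.315 to 1.86 ± 0.234 CPM (log2 fold change −1.01 ± 0.15, adjusted p = 3.171e-04), in the same direction as the other intestinal markers detected. CDH23, an atypical cadherin of hair cell tip links, fell from 5.47 ± 0.467 to 2.87 ± 0.883 CPM (log2 fold change −0.93 ± 0.19, adjusted p = 0.0023), with OE_IGF2BP3 replicate 3 lowest at 1.91 CPM. C10orf105 covers 18.9% of its exonic bases on the opposite strand but had 17 reads in all. CDH24 (−0.19 ± 0.10), CDH19 (0.17 ± 0.16) and P-cadherin, encoded by CDH3 (−0.63 ± 0.34, at 0.916 CPM in controls), did not pass. VE-cadherin, the endothelial cadherin encoded by CDH5, had 1 read in the 6 libraries.

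Alpha-catenin and p120-catenin did not pass. Alpha-catenin, CTNNA1, which ties cadherins to actin, went from 311 ± 10.5 to 321 ± 9.61 CPM (log2 fold change 0.04 ± 0.04, adjusted p = 0.44), and p120-catenin, CTNND1, which holds cadherins at the cell surface, from 29.001 ± 0.797 to 30.8 ± 0.654 CPM (log2 fold change 0.09 ± 0.06, adjusted p = 0.25). EPCAM, a surface adhesion molecule used as an epithelial marker, was at 255, 259 and 255 CPM and at 234, 225 and 228 CPM, each overexpression library below each control (log2 fold change −0.16 ± 0.04, adjusted p = 0.0053). Its call ended narrowly with limma on log2(FPKM + 0.1) (adjusted p = 0.051). 

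**Figure D2:**
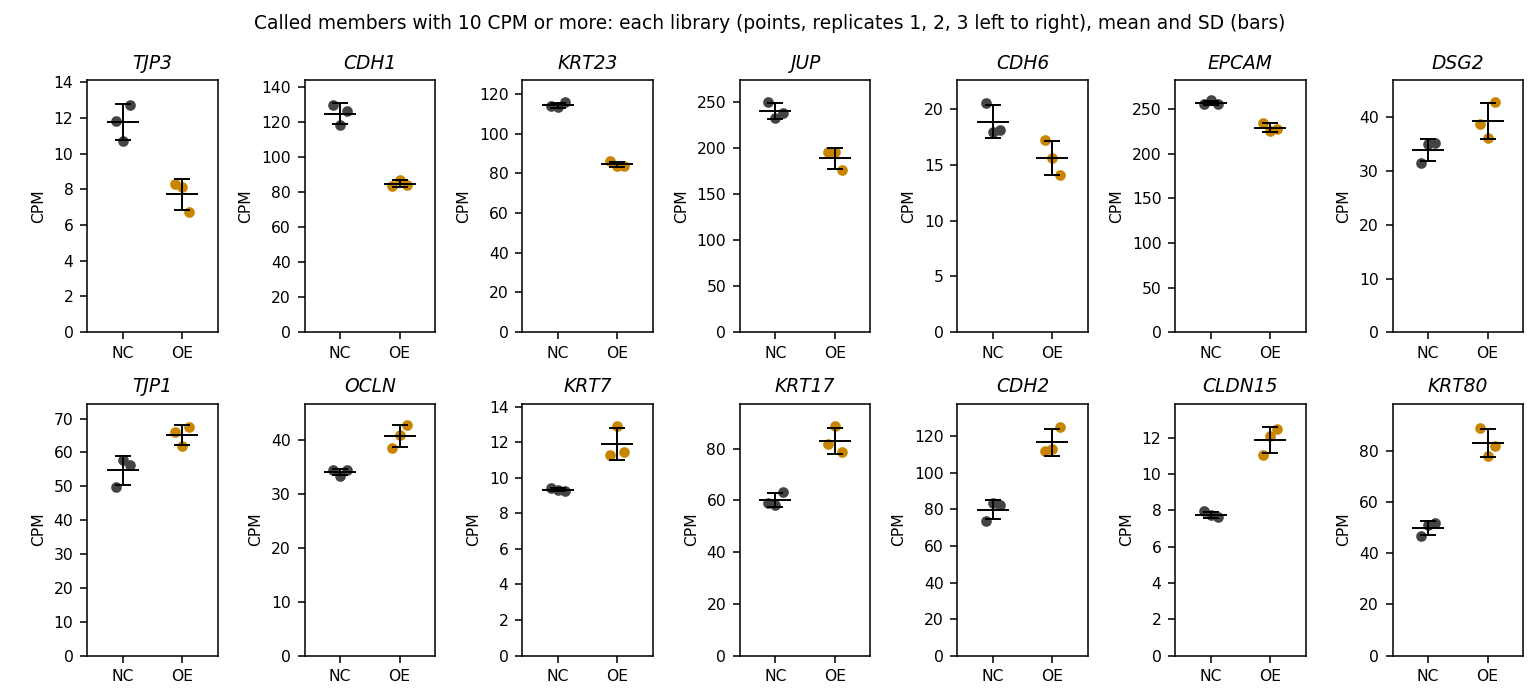
CPM of the 14 called genes with at least 10 CPM in the higher group, each panel starting at 0, with every library as a point, and the mean and SD as bars. In each panel the 3 control and 3 overexpression libraries do not overlap, most narrowly for DSG2 and CDH6.

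At the tight junction, the strand protein occludin and the scaffold ZO-1 rose while ZO-3 fell. OCLN (ENSG00000197822.12; chromosome 5, 69492292 to 69558104, plus strand), which encodes occludin, had 34.4, 33.4 and 34.4 CPM in controls and 38.6, 40.9 and 42.8 CPM with overexpression (log2 fold change 0.26 ± 0.06, adjusted p = 0.004). TJP1 (ENSG00000104067.17; chromosome 15, 29699367 to 29968865, minus strand), which encodes ZO-1, had 49.9, 57.9 and 56.4 CPM without and 66.03, 61.9 and 67.4 CPM with overexpression (log2 fold change 0.25 ± 0.06, adjusted p = 0.0077). TJP3 (ENSG00000105289.15; chromosome 19, 3708109 to 3750813, plus strand), which encodes ZO-3, had 11.8, 10.7 and 12.7 CPM without and 8.32, 8.14 and 6.74 CPM with overexpression (log2 fold change −0.61 ± 0.10, adjusted p = 7.513e-04). In none of these 3 genes did the groups overlap, and all 3 calls held without NC replicate 1 and OE_IGF2BP3 replicate 3, where the change of TJP1 was 0.16. With trends on GC content and length removed the change of OCLN was 0.15 and still passed. The ratio of TJP1 to TJP3 reads was 4.22, 5.396 and 4.43 in the control libraries and 7.93, 7.61 and 10.004 with overexpression. This ratio combines the rise and the fall just given and is no separate evidence of either.

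Claudins were led per length by CLDN1, at 201 ± 10.8 FPKM in controls, and most did not pass. Of 20 claudin genes 11 were tested, 1 rose and 2 fell, with a median of −0.15. CLDN1, a sealing claudin, was at 844, 897 and 888 CPM and at 856, 827 and 884 CPM, with overlapping groups (log2 fold change −0.03 ± 0.04, adjusted p = 0.53). It passed as lower without NC replicate 1 and OE_IGF2BP3 replicate 3 (−0.08, adjusted p = 0.0051) and with GC and length trends removed (−0.11, adjusted p = 0.0066), and was above 0 with limma on FPKM. CLDN6, a claudin of embryonic epithelia and some tumours, was at 166, 153 and 161 CPM and at 162, 166 and 148 CPM and overlapped too (log2 fold change −0.01 ± 0.05, adjusted p = 0.91). CLDN7, known to bind EPCAM, had 41.8, 39.5 and 40.8 CPM without and 39.1, 37.1 and 33.9 CPM with overexpression (log2 fold change −0.15 ± 0.06, adjusted p = 0.08), and passed only under upper quartile scaling. CLDN15, a claudin that forms cation-selective pores in the intestine, rose from 7.96, 7.74 and 7.62 CPM to 11.1, 12.1 and 12.5 CPM (log2 fold change 0.61 ± 0.09, adjusted p = 1.800e-04), each overexpression library above each control. CLDN3, a sealing claudin of many glandular epithelia, fell from 8.58, 5.65 and 6.38 CPM to 3.77, 4.28 and 3.46 CPM (log2 fold change −0.84 ± 0.16, adjusted p = 0.0013). NC replicate 1 was the highest library for CLDN3, and without it and OE_IGF2BP3 replicate 3 the log2 fold change was −0.58 and still passed. CLDN22 fell at a very low level, from 0.505 ± 0.115 to 0.191 ± 0.0981 CPM (log2 fold change −1.39 ± 0.42, adjusted p = 0.02), and lies wholly within exons of WWC2 on the opposite strand, so it is uncertain. Its call ended without NC replicate 1 (adjusted p = 0.061), without OE_IGF2BP3 replicate 3 (adjusted p = 0.082) and with DESeq2 (adjusted p = 0.071), and without NC replicate 1 and OE_IGF2BP3 replicate 3 together its log2 fold change was −0.84 (adjusted p = 0.16). CLDN18, whose gastric form marks stomach epithelium, was not tested and had at most 3 reads in a library.

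The promoters of 4 tight junction genes, 3 that rose and 1 that fell, are shown to set genes of 1 structure that moved in opposite directions side by side. Those of CLDN3 and CLDN22, which also fell, held none of the motifs searched and are not printed. The table of RefSeq promoters used here (GRCh38.p14) had entries for 26 of the 51 tested genes. RefSeq starts differ from the ends of the GENCODE spans. The stretches of OCLN, CLDN15 and TJP3 lie inside the GENCODE spans of these genes, and that of TJP1 lies before its span. The 250 bases before the RefSeq start were searched on both strands for CAGGTG, the E-box that ZEB and SNAI factors are known to bind. Also searched were TGANTCA (N is any base), the TATA box motif TATAAA and GGAATG, a motif of TEAD factors. TGANTCA takes in the AP-1 site and looser forms of it, so not every match is an AP-1 site. Matches are in capitals, with motifs counted separately where they overlap, and no 2 matches overlap in the sequences shown, each written 5′ to 3′ on the strand of its gene.
OCLN (chr5:69492297-69492546, plus strand): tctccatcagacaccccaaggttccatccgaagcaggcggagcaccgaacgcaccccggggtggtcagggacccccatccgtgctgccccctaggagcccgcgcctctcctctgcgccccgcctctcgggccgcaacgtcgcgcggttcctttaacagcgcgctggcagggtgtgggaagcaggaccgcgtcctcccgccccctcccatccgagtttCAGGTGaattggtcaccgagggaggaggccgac
TJP1 (chr15:29969050-29969299, minus strand): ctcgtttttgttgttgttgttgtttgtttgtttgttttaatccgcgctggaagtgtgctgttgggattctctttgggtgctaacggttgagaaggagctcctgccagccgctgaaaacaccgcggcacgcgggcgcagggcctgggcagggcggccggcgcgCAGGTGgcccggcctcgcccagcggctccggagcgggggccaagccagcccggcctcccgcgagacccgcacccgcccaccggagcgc
CLDN15 (chr7:101237803-101238052, minus strand): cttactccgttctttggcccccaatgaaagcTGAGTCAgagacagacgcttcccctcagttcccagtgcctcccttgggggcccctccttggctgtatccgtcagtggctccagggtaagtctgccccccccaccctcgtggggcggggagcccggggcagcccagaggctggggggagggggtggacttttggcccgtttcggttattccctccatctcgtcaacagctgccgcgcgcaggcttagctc
TJP3 (chr19:3708134-3708383, plus strand): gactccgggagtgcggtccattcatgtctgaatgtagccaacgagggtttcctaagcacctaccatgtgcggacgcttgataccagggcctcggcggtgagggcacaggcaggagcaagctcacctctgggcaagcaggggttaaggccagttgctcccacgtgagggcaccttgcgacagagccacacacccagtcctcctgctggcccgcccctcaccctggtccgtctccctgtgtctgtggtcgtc
OCLN and TJP1 each held 1 CAGGTG match, beginning 33 and 88 bases before the RefSeq start. CLDN15 held 1 TGANTCA match, 219 bases before it, and TJP3 none of the 4 motifs. CAGGTG was found in 17.5% of all 35116 promoters of the same length, and in 6 of the 26 promoters of tested genes (23.1%): those of OCLN, TJP1 and DSG2, which rose, and of DSC2, DSP and KRT5, which did not pass. TGANTCA was found in 6.57% of all promoters, TATAAA in 10.7% and GGAATG in 11.9%. A match describes these letters only.

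Most desmosomal genes did not pass: of 12, 9 were tested, 1 rose and 1 fell, with a median of −0.02. Plakoglobin, which serves desmosomes and adherens junctions and is encoded by JUP (ENSG00000173801.17; chromosome 17, 41754604 to 41786931, minus strand), was at 249.7, 233 and 238 CPM in controls and at 195, 196 and 176 CPM with overexpression. Each overexpression library was lower than each control (log2 fold change −0.35 ± 0.05, adjusted p = 2.342e-04). Desmoglein 2, the desmosomal cadherin of simple epithelia, encoded by DSG2, had 31.5, 35.01 and 35.2 CPM without and 38.8, 36.2 and 42.9 CPM with overexpression (log2 fold change 0.21 ± 0.07, adjusted p = 0.036). The groups for DSG2 nearly touched, and the call ended in 10 of the alternatives, among them without any 1 library other than OE_IGF2BP3 replicate 2 (adjusted p 0.0517 to 0.124), without NC replicate 1 and OE_IGF2BP3 replicate 3 together (0.10, adjusted p = 0.19) and with GC and length trends removed (0.12, adjusted p = 0.093). Its neighbours DSC2 (0.24 ± 0.11) and DSC3 (0.44 ± 0.29) did not pass.

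Unlike plakoglobin, desmoplakin and the plakophilins did not pass. Desmoplakin, DSP, had 167, 169.8 and 178 CPM without and 169.8, 172 and 183 CPM with overexpression (log2 fold change 0.03 ± 0.05, adjusted p = 0.63). Plakophilin 3, PKP3, had 195, 198 and 203 CPM without and 201, 208 and 177 CPM with overexpression (log2 fold change −0.03 ± 0.06, adjusted p = 0.74), with OE_IGF2BP3 replicate 3 lowest, and had a log2 fold change of 0.12 that passed once trends on GC content and length were removed (adjusted p = 0.024). PKP4, a plakophilin found also at adherens junctions, did not pass either (log2 fold change −0.10 ± 0.05, adjusted p = 0.098). It passed without NC replicate 1 and OE_IGF2BP3 replicate 3 (−0.13, adjusted p = 0.0066), with GC and length trends removed (−0.16, adjusted p = 0.0039) and under upper quartile scaling (−0.15, adjusted p = 0.023). PKP2, the plakophilin of simple epithelia, was at mean levels of 95.9 and 94.5 CPM and did not pass. Of the desmosomal cadherins of stratified epithelia, DSC1 had 2 reads, DSG1 8 and DSG3 11 over the 6 libraries, whereas DSC3 had 279, at mean levels of 1.10 and 1.49 CPM.

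Keratins took most of the reads of these genes. The summed keratin level was 10159, 9831 and 9701 CPM in controls and 10103, 10253 and 8864 CPM with overexpression, so the groups overlapped, and OE_IGF2BP3 replicate 3 was lowest. KRT8 and KRT18 made up 89.5% to 90.04% of keratin reads in each library. KRT8 had 5233, 5061 and 4996 CPM in controls and 4994, 5071 and 4365 CPM with overexpression (log2 fold change −0.08 ± 0.05, adjusted p = 0.21). KRT18 had 3914, 3785 and 3709 CPM without and 4083, 4147 and 3568 CPM with overexpression (log2 fold change 0.05 ± 0.05, adjusted p = 0.48). KRT19 had 724, 695 and 696 CPM without and 698, 710.2 and 620.5 CPM with overexpression (log2 fold change −0.06 ± 0.05, adjusted p = 0.36). None of the 3 passed, and in each OE_IGF2BP3 replicate 3 was the lowest library. Without that library KRT18 passed with a log2 fold change of 0.11 (adjusted p = 0.0074), and without it and NC replicate 1 with 0.14 (adjusted p = 6.3e-07). Per length, KRT18 was the highest of all 51 genes in controls, at 1032 ± 5.94 FPKM, followed by KRT8 (617 ± 0.877), KRT19 (251 ± 1.37) and CLDN1 (201 ± 10.8), with no overlap between these neighbours. EPCAM (87.96 ± 2.39) and CLDN6 (76.5 ± 2.35) came next, and then PKP3 (43.6 ± 1.85) and JUP (40.5 ± 0.785).

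The ratio between the partners KRT18 and KRT8 varied less among overexpression libraries than the level of either. KRT18 is the type I chain that pairs with the type II chain KRT8, and the 2 genes lie next to each other on chromosome 12. The ratio of KRT18 to KRT8 reads was 0.748, 0.748 and 0.742 in the control libraries and 0.818, 0.818 and 0.818 with overexpression. It was 0.746 ± 0.00325 in controls and 0.818 ± 0.00017 with overexpression (SD, n = 3 each). The groups did not overlap, and OE_IGF2BP3 replicate 3 did not stand apart. An SD as small as 0.00017 from 3 libraries is no guide to how closely the ratio would repeat. The 2 genes share 525 exonic bases on opposite strands, 16.3% of those of KRT18 and 7.63% of those of KRT8. The libraries were directional, but no source used here states whether the counting used strand. Annotated pseudogenes of KRT8 and KRT18 held 0.125% and 0.0309% as many reads as their parents.

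**Figure D3:**
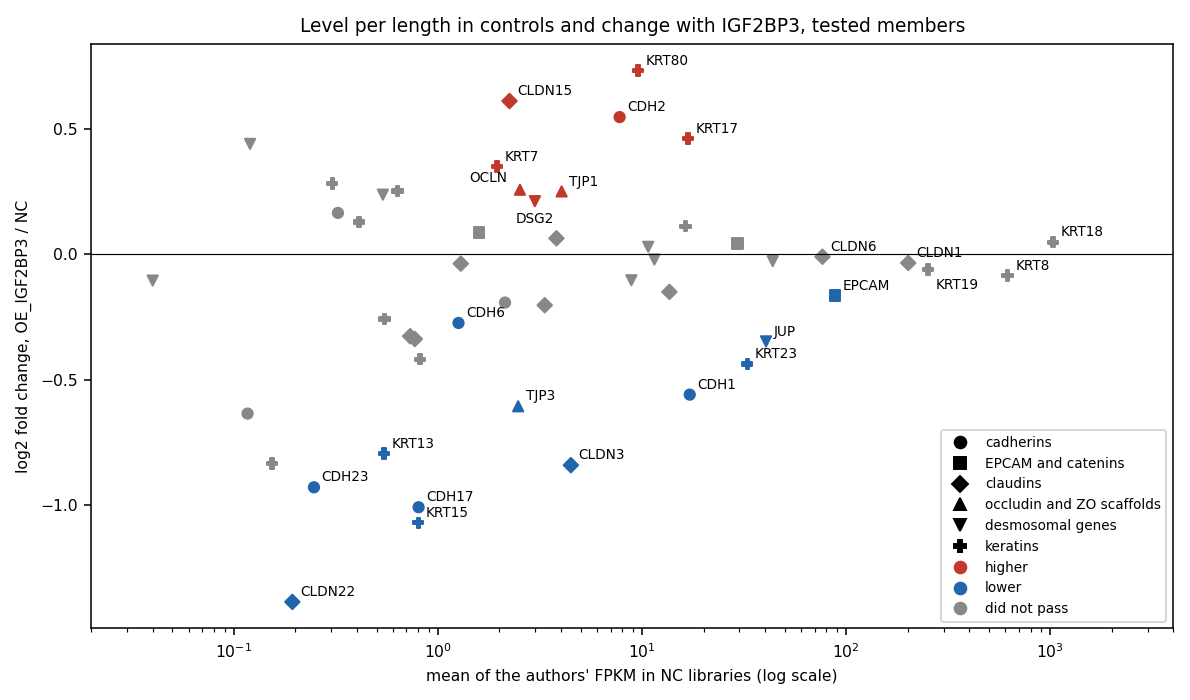
Log2 fold change against the mean of the authors' FPKM in control libraries (log axis), 1 symbol per tested gene reported here, with its shape for the class and its colour for the call. The 4 genes above 100 FPKM, KRT18, KRT8, KRT19 and CLDN1, lie near 0, and the genes called lie below that level.

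Beneath these abundant chains, 3 keratins rose and 3 fell of the 16 tested (30 in all; median −0.01). KRT80, a type II keratin found in many epithelia, had the largest rise of all 51 genes. KRT80 (ENSG00000167767.14; chromosome 12, 52168996 to 52192000, minus strand) was at 46.98, 51.02 and 51.9 CPM in controls and at 89.2, 78.1 and 82.1 CPM with overexpression, a 1.66-fold rise (log2 fold change 0.73 ± 0.06, adjusted p = 5.598e-06). KRT17, a type I keratin induced in wounded and dividing epithelium, rose from 59.04, 58.3 and 63.3 CPM to 81.6, 88.6 and 78.8 CPM (log2 fold change 0.46 ± 0.06, adjusted p = 8.046e-05). KRT7, a type II keratin of simple glandular epithelia, rose from 9.42, 9.32 and 9.23 CPM to 11.3, 12.9 and 11.5 CPM (log2 fold change 0.35 ± 0.08, adjusted p = 0.0065). For each of the 3 the overexpression libraries lay above the controls.

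The keratins that fell were all of type I. KRT23 had 114, 114 and 116 CPM in controls and 86.1, 83.7 and 83.9 CPM with overexpression (log2 fold change −0.44 ± 0.04, adjusted p = 1.623e-05). The 3 libraries of a group lay within a few CPM of each other, far from the other group. KRT15, a keratin of basal cells in stratified epithelia, fell from 6.69, 5.38 and 5.16 CPM to 2.81, 2.704 and 2.69 CPM (log2 fold change −1.07 ± 0.14, adjusted p = 9.253e-05). KRT13, a keratin of stratified mucosa, fell from 1.901 ± 0.3204 to 1.097 ± 0.391 CPM (log2 fold change −0.79 ± 0.25, adjusted p = 0.026), and its call ended without NC replicate 2 (−0.65, adjusted p = 0.098), without OE_IGF2BP3 replicate 1 (−0.58, adjusted p = 0.10) or without OE_IGF2BP3 replicate 3 (−0.75, adjusted p = 0.081). Of 9 type I keratins tested 1 rose and 3 fell, and of 7 type II keratins 2 rose and 0 fell. Among all genes tested 18.5% were higher and 19.2% lower, and the difference between the types was not tested. The stratified keratins KRT5 and KRT14 were at 2.03 and 1.72 CPM in controls and 2.23 and 2.06 CPM with overexpression, and neither passed. Of 6 squamous markers 1, KRT13, was lower and 0 were higher, with sums of 8.72 to 8.93 and 6.96 to 10.6 CPM.

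Keratins other than KRT8, KRT18 and KRT19 together were at 288, 289.9 and 299.9 CPM in controls and 327, 325 and 311 CPM with overexpression. The groups did not overlap, although this sum holds both rises and falls. Pairs of genes with opposite changes, chosen after the values were seen, gave ratios that need no scaling. The ratio of KRT80 to KRT23 reads was 0.413, 0.449 and 0.448 in the control libraries and 1.04, 0.933 and 0.979 with overexpression. That of KRT17 to KRT15 was 8.82, 10.8 and 12.3 in the control libraries and 29.05, 32.8 and 29.4 with overexpression, and that of CLDN15 to CLDN3 was 0.928, 1.37 and 1.196 in the control libraries and 2.94, 2.82 and 3.605 with overexpression. These pairs of opposite changes separate the groups because they were chosen for it. For PKP2 to PKP3, neither of which passed, the ratio was 0.482 ± 0.0522 in controls and 0.488 ± 0.0576 with overexpression (SD, n = 3 each). Its groups overlapped.

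**Figure D4:**
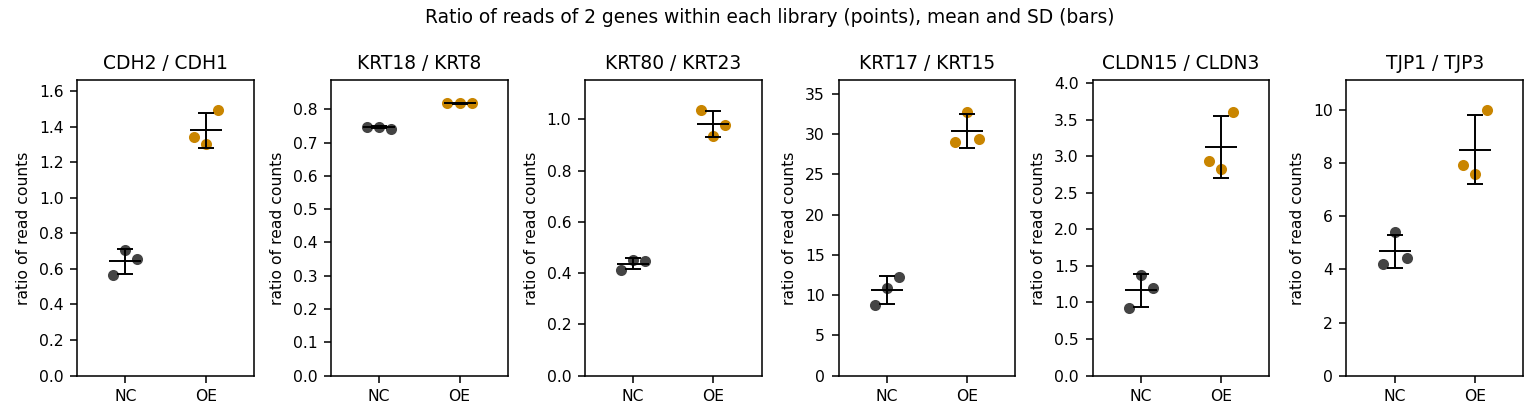
Ratio of the read counts of 2 genes within each library (points), with mean and SD per group (bars) and axes from 0. The ratio of CDH2 to CDH1 is 0.567 to 0.706 in controls and 1.303 to 1.49 with overexpression, and that of KRT18 to KRT8 0.742 to 0.748 and 0.818.

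The other genes of these structures were taken from lists chosen with earlier results known, and values in brackets are log2 fold changes ± SE. Counts from these lists, here and in the following paragraphs, stand beside 18.5% higher and 19.2% lower among all genes tested (median −0.01). Among partners at adherens junctions 3 of 16 tested rose and 6 fell (median −0.12). LMO7, an afadin-binding protein, rose from 124 ± 15.1 to 207 ± 24.1 CPM (0.74 ± 0.09) and vinculin, VCL, which ties catenins to actin, rose too (0.22 ± 0.04). Delta-catenin, CTNND2 (−0.57 ± 0.07), and CTNNBIP1, an inhibitor of beta-catenin (−0.49 ± 0.07), fell. Among tight junction partners 3 of 23 rose and 6 fell (median 0.001). The cingulin family fell, CGNL1 from 13.6 ± 0.987 to 5.65 ± 0.797 CPM (−1.27 ± 0.11) and CGN from 54.9 ± 4.34 to 39.8 ± 1.75 CPM (−0.47 ± 0.07), while the transcription factor YBX3, which binds ZO-1, (0.24 ± 0.04) and the scaffold MAGI3 (0.25 ± 0.09) rose. Of 8 tested linkers of desmosomes and keratins 2 fell and 0 rose: TRIM29 (−0.52 ± 0.09) and periplakin, PPL (−0.15 ± 0.04). The call of MAGI3 ended in 11 of the alternatives, among them without any 1 library other than NC replicate 2 (adjusted p 0.0518 to 0.128), and that of PPL without NC replicate 3 (adjusted p = 0.054) and in 4 others. 1 tight junction partner rose without NC replicate 3, OE_IGF2BP3 replicate 1 or OE_IGF2BP3 replicate 3.

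Hemidesmosomes anchor keratins to the basement membrane. Of their 8 genes 4 rose and 2 fell (median 0.13). LAMA3, which encodes a chain of laminin-332 (6.89 ± 0.572 to 13.1 ± 0.311 CPM; 0.93 ± 0.09), rose, and CD151 (−0.28 ± 0.06) and the integrin gene ITGB4 (−0.37 ± 0.10) fell. Of 9 gap junction genes 1 fell, GJB1, the connexin of liver and other glands (2.42 ± 0.470 to 0.877 ± 0.337 CPM), and 0 rose. In the larger cadherin superfamily 14 of 52 fell and 2 rose (median −0.24), with PCDH17 (−1.35 ± 0.14) and PCDH10 (−1.07 ± 0.15) lower and CELSR3 (0.64 ± 0.12) and PCDH1 (0.54 ± 0.10) higher. Without NC replicate 3, 9 of this family fell. Without NC replicate 1, NC replicate 3 or OE_IGF2BP3 replicate 2, 2 hemidesmosome genes rose, and gap junction falls numbered 3 without NC replicate 1 and 2 without OE_IGF2BP3 replicate 3. In some protocadherin clusters the members share exons, so single members of those clusters are uncertain. Of 6 tested partners of EPCAM, among them the claudin gene CLDN7 already given above, 3 fell and 0 rose. TSPAN8, a tetraspanin, fell from 23.6 ± 1.44 to 12.5 ± 1.12 CPM (−0.92 ± 0.08), and SPINT1, a protease inhibitor, was lower too (−0.30 ± 0.05).

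Regulators of these genes moved in both directions. Of 15 tested regulators of epithelial identity 2 rose and 5 fell (median −0.07). KLF4 (35.3 ± 2.66 to 64.4 ± 4.77 CPM; 0.87 ± 0.07) and ELF3 (0.52 ± 0.05), transcription factors of epithelial differentiation, rose, and ESRP1, a splicing factor of epithelia (−0.42 ± 0.05), and FOXA1, a factor of endodermal organs (−0.71 ± 0.09), fell. Of 5 tested repressors and drivers of epithelial-mesenchymal transition 3 rose and 1 fell, all at low levels. ZEB1, known to repress CDH1, had 1.24, 1.73 and 1.83 CPM in controls and 3.35, 2.96 and 4.06 CPM with overexpression (log2 fold change 1.11 ± 0.19, adjusted p = 6.586e-04). ZEB2 had 0.675, 0.896 and 0.915 CPM without and 2.11, 1.94 and 2.47 CPM with overexpression (log2 fold change 1.39 ± 0.20, adjusted p = 2.566e-04), and both lay higher in each overexpression library. SNAI2 (0.64 ± 0.19) rose and SNAI3 (−0.87 ± 0.27) fell, whereas SNAI1, at 7.335 and 7.66 CPM, did not pass. The call of SNAI2 ended without NC replicate 2, NC replicate 3 or OE_IGF2BP3 replicate 2 (adjusted p 0.0603 to 0.0806) and with DESeq2 (adjusted p = 0.079), and that of SNAI3 without NC replicate 1, OE_IGF2BP3 replicate 2 or OE_IGF2BP3 replicate 3 (adjusted p 0.0737 to 0.0824). The call of ZEB2 ended with limma on log2(FPKM + 1) (adjusted p = 0.06). Vimentin, the filament protein of mesenchymal and many cultured cells, rose from 1042 ± 12.5 to 1334 ± 25.3 CPM (log2 fold change 0.36 ± 0.03, adjusted p = 1.014e-05), the 1 rise among 5 tested filament genes of types III and IV.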

How the data were processed

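Per the labels, mRNA was captured on beads and made into directional (dUTP) libraries, read as pairs. Raw read counts per gene of 6 libraries were deposited by the authors, with a table of FPKM values per gene that the authors computed and deposited at 2 decimals. HISAT2, DESeq2 and GRCh38 are named, per the submitters' processing notes. The tool that counted reads, its use of strand and its annotation were not given in the sources. Library totals were 33555366 to 37633587 counts.

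Counts were filtered with filterByExpr (minimum count 10, minimum total 15), scaled with TMM and tested with edgeR 4.0.16 in R 4.3.3 (glmQLFit, glmQLFTest), with Benjamini-Hochberg adjustment over 17747 genes and a threshold of 0.05. CPM values use the TMM-scaled totals. Positions and exon overlaps came from GENCODE release 29 and promoters from RefSeq (GRCh38.p14), 250 bases before the RefSeq start. Levels of different genes were compared by FPKM.

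Alternatives were DESeq2 1.42.0, limma 3.58.1 on log2(FPKM + 1) and log2(FPKM + 0.1), RLE and upper quartile scaling, other filters, a GC and length trend, a replicate block, a fold limit of 1.5, and libraries left out. Members, gene lists and alternatives were chosen with earlier results of these data known. Named were all members past the threshold (values in every library from 10 CPM), the 3 with the highest mean CPM in each class that did not pass, and in each partner list the 2 with the smallest p in each direction. Other names were chosen after values were seen. Some genes that this rule names are not reported here.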

Additional observations from a re-analysis of the deposited data

How the results depend on the processing

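Of the 20 genes called, 15 kept call and direction under every alternative other than the fold limit, and CDH6, CLDN22, DSG2, KRT13 and EPCAM lost the call under 1 to 10 of them. With a fold of at least 1.5 required, 2 of the 51 tested were higher and 7 lower, against 406 and 1268 of all 17747 genes tested. Of the partner genes 19 passed with that limit and 58 without it. Otherwise 7 to 9 were higher and 9 to 15 lower, and leaving out 1 library gave 7 to 8 and 9 to 12. Upper quartile scaling moved the split of all 17747 genes tested to 2577 higher and 3949 lower, from 3288 and 3410. That of the 51 junction and keratin genes moved to 7 and 15. With limma on log2(FPKM + 1) 3416 of all genes were higher and 2453 lower. Without NC replicate 1 and OE_IGF2BP3 replicate 3 together 8 were higher and 15 lower.

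Replicate numbers are shared by the groups but did not pair the libraries: deviations of same-numbered libraries correlated at 0.09, −0.04 and 0.08, and not every library correlated best with its own number. With a replicate block 8 of the 51 were higher and 12 lower, and 3339 and 3509 of all 17747 genes tested.

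Log2 fold changes of genes that did not pass changed sign as follows, and the cause was not tested. Under upper quartile scaling CTNNA1 was −0.0001 and DSP −0.0135. With GC and length trends removed CLDN6 was 0.0920, DSP −0.0173, PKP3 0.1236 and KRT19 0.0763. With limma on FPKM plus 0.1 and plus 1, CLDN1 was 0.0182 and 0.0181, CLDN6 0.0423 and 0.0418, and PKP3 0.0225 and 0.0221. CLDN6 was 0.0015 with DESeq2 and 0.0147 with no filter. Without NC replicate 1 and OE_IGF2BP3 replicate 3 CTNNA1 was −0.0087, CLDN6 0.0649, DSP −0.0219, PKP3 0.0271, KRT19 0.0178 and KRT8 0.0009. Leaving out 1 library, values ran from 0.0157 to 0.0651 for CTNNA1, −0.0395 to 0.0393 for CLDN6, −0.0016 to 0.0578 for DSP, −0.0722 to 0.0412 for PKP3, −0.0939 to −0.0007 for KRT19 and −0.1208 to −0.0178 for KRT8. CLDN6 was above 0 without NC replicate 1 or OE_IGF2BP3 replicate 3, and DSP and PKP3 changed sign without OE_IGF2BP3 replicate 3. CLDN1, CLDN7, PKP4 and KRT18 passed in their direction under at least 1 alternative and PKP3 with its sign turned, KRT18 also without OE_IGF2BP3 replicate 3. Low genes such as CLDN22 and KRT13 have wide errors, and junction and keratin genes with fewer reads than KRT83 (57) were not tested.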

Other observations

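Many of the junction and keratin genes lie beside each other, within 200000 bases of a neighbour of the set, and the calls inside such clusters were mixed. On chromosome 12, 15 keratins from KRT80 to KRT18 form a cluster in which 8 were tested, and KRT80 and KRT7 at its outer end rose, whereas KRT5, KRT81, KRT83, KRT86, KRT8 and KRT18 did not pass. On chromosome 17, 9 genes from KRT37 to JUP form a cluster in which KRT17 (0.46 ± 0.06) rose beside KRT13 (−0.79 ± 0.25), KRT15 (−1.07 ± 0.14) and JUP (−0.35 ± 0.05), which fell, and KRT19, KRT14 and KRT16, which did not pass. A second group of 7 keratins on chromosome 17 held KRT23, which fell, and KRT10 (0.11 ± 0.05), which did not pass. On chromosome 18, 6 desmosomal cadherin genes are neighbours, and of the 3 tested DSG2 rose while DSC2 and DSC3 did not pass. CDH1 lies beside CDH3 on chromosome 16, and CLDN3 beside CLDN4 (−0.33 ± 0.13) on chromosome 7, and in each pair the first fell and the other did not pass. Whether neighbours changed together was not tested.

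CLDN22 cannot be read apart from an overlapping gene. It had 74 reads in the 6 libraries and WWC2, which covers all of it on the opposite strand, 5292.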
